A study of Mus musculus with 6 samples.

Results

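Helper and regulatory T cell fate genes are described here in the renal cortex of diabetic mice. The set holds 10 genes, Tbx21, Eomes, Gata3, Foxp3, Ikzf2, Tcf7, Ifng, Izumo1r, Cd2 and Cd6, chosen by name, of 37323 genes on the array, and they were read by 17 of its 56599 probes. All 10 were among the 22741 genes tested, with 15 of their 17 probes kept. The arrays compared 3 samples from C3aR-/- diabetic mice, which lack the receptor for the complement fragment C3a, with 3 samples from wild-type (WT) diabetic mice, all male and on a C57BL/6 background. Both groups had the same disease model: from 8 weeks of age the mice ate a diet with 60% of its energy from fat, after 4 weeks they received streptozotocin (STZ), a toxin of pancreatic beta cells, at 60 mg/kg on 3 days, and cortex was taken 26 weeks after STZ. The study also had C3aR-/- and WT groups without diabetes, which were not analysed here, so no value below sets diabetic against non-diabetic tissue. How the receptor gene was disrupted and whether the WT mice were littermates were not stated by the sources available.

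Naive CD4 T cells keep a precursor state under the transcription factor TCF-1, encoded by Tcf7, and take on helper or regulatory fates when a lineage factor is switched on. T-bet (Tbx21) drives the type 1 fate, GATA3 the type 2 fate and FOXP3 the regulatory fate, in which Helios (Ikzf2) is also present. T-bet and its relative eomesodermin (Eomes) act on the gene of the type 1 cytokine interferon-gamma (Ifng). Izumo1r encodes folate receptor 4, a surface protein of regulatory and anergic T cells, while Cd2 and Cd6 encode an adhesion receptor and a scavenger-family co-receptor of T cells. Several of these genes also work outside T cells: T-bet and eomesodermin in natural killer cells, and GATA3 in the collecting duct and mesangium of the kidney.

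Each array was hybridised with Cy3-labelled RNA of 1 sample, and labels do not say that the 3 samples of a group came from separate animals, so every p-value below measures the spread between these samples, which may be technical. A level is the log2 processed signal of a probe minus the 75th percentile of its own array, so a level of -4 lies 4 doublings under that percentile, and levels of different probes are not set against each other. Differences are C3aR-/- minus WT with the limma standard error (SE), and p-values are limma's, two-sided. Between 58.6% and 63.0% of probes were well above background on an array, and none of the spots was saturated. Correlations between arrays lay between 0.981 and 0.995. WT replicate 1 and C3aR-/- replicate 2 were the most distant pair on principal component 1, which held 43.1% of the variance. All 10 kidney genes used as a tissue check, among them Nphs1 of podocytes and Aqp2 of the collecting duct, were well above background on the 6 arrays. C3ar1, the disrupted gene, had levels of -4.10, -4.95 and -4.69 on the C3aR-/- arrays, against -2.96, -3.86 and -3.62 on the WT arrays, a difference of -1.10 ± 0.30. No C3aR-/- array reached a WT array, but the probe was well above background on 2 of 3 C3aR-/- arrays, and its place relative to the disrupted stretch was not stated by the sources available.

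The sequences below are the first 30 bases of 60-base array probes, read from the array files, whose positions are on the mm9 build. They are shown because the results turn on what these few oligonucleotides read: both probes of Izumo1r, which gave unequal differences, and the probes of the FOXP3, T-bet, eomesodermin and interferon-gamma genes. The whole probes lie at chr9:14704467-14704526 and chr9:14705178-14705237 on the minus strand for Izumo1r probes 1 and 2, at chrX:7172301-7172360 on the plus strand for Foxp3, at chr11:96959417-96959476 on the minus strand for Tbx21, at chr9:118394425-118394484 on the plus strand for Eomes and at chr10:117882841-117882900 on the plus strand for Ifng. An annotation of that build was not used here, so the probes are not placed in exons.
Izumo1r probe 1: gctgacagccaagcgacatgtcctatcatg
Izumo1r probe 2: gcctgccactcatctttgacttgtaaatcc
Foxp3: attatgtgttggagtgtgcctgaacagctc
Tbx21: gaggggggaggctatttattgtagagagtg
Eomes: gctatgaagaacgagtgcccggtgctatta
Ifng: cttccctatacagctgaaaactgtgactac

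Most of these T cell genes read lower in C3aR-/- diabetic cortex. Of the 10 genes, 9 had a lower mean level in C3aR-/- samples, a direction taken by 43.4% of all genes tested, and the median difference was -1.15, against 0.026 over all genes. In 7 of them (Foxp3, Ifng, Eomes, Izumo1r, Tcf7, Cd2 and Cd6) the 3 C3aR-/- arrays all lay below the 3 WT arrays; the groups did not overlap in 9.85% of all genes, with C3aR-/- lower in 4.19% and higher in 5.66%. The same 7 had an unadjusted p under 0.05 in limma, which 4.89% of all genes had, 2.68% lower and 2.21% higher. Of these, 6 measured at least 2-fold lower, as did 0.743% of all genes; 5 of the 6 were well above background on all 6 arrays, and Foxp3 was not. The other 3, Tbx21, Gata3 and Ikzf2, had overlapping groups. The 10 genes were chosen with earlier results of these data known. Their counts are therefore described beside the shares over all genes and are not a test of the set. After Benjamini-Hochberg adjustment over all genes, limma called none of the 10 and 0 of 22741 genes (0.0%), against 1111 at an unadjusted p under 0.05; the lowest adjusted p was 0.920 among the 10 genes and 0.858 over all genes. In RNA from whole cortex, fewer T cells, fewer other cells with these transcripts and less of a transcript per cell cannot be told apart.

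**Figure D1:**
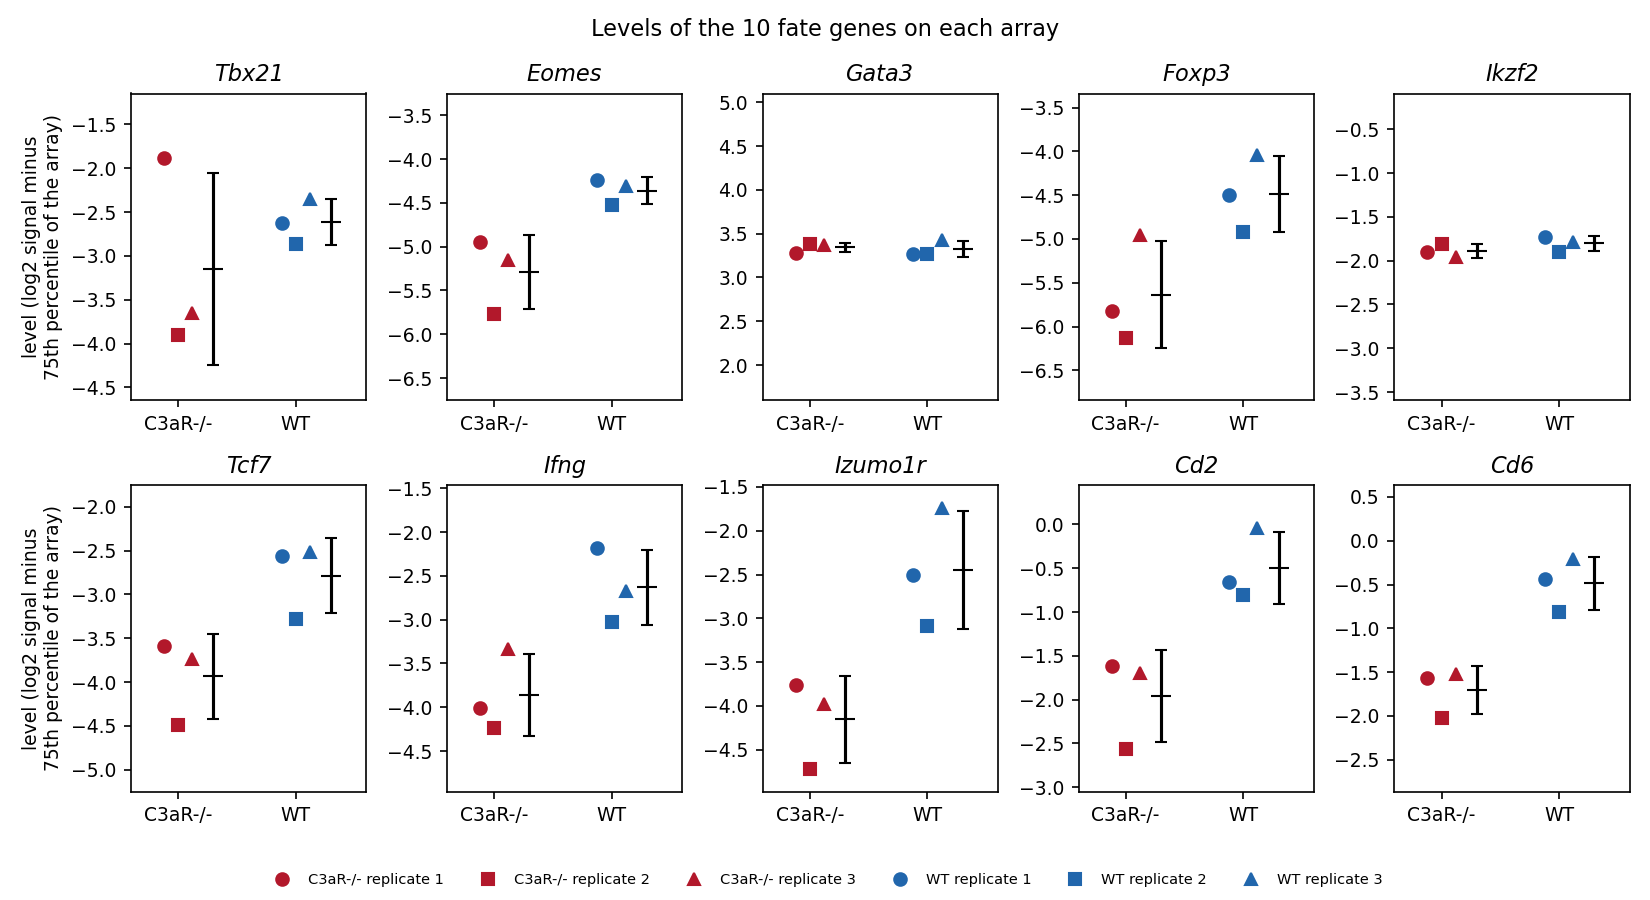
Levels of the 10 genes on each array, one panel per gene, with C3aR-/- arrays left of WT arrays. The vertical axis is the log2 processed signal minus the 75th percentile of the array and spans the same number of log2 units in every panel. Symbols are the 3 replicates, and the bar beside them is the mean ± SD. The C3aR-/- arrays lie below all WT arrays in 7 panels, while Tbx21, Gata3 and Ikzf2 overlap.

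The type 1 cytokine gene Ifng and the T-box genes Eomes and Tbx21 were uneven. Ifng, the cytokine through which type 1 helper and natural killer cells activate macrophages, had levels of -4.01, -4.24 and -3.34 on the C3aR-/- arrays, against -2.19, -3.03 and -2.68 on the WT arrays. The highest C3aR-/- array lay below the lowest WT array, and the probe was well above background on all 6. The difference was -1.23 ± 0.30 (2.35-fold lower, unadjusted p = 0.00557 by limma, n = 3 each). With normexp background correction, whose offset shrinks differences of dim probes, it was -0.66.

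Eomes, the T-box factor of natural killer and memory CD8 T cells, had levels of -4.95, -5.76 and -5.15 on the C3aR-/- arrays, against -4.24, -4.53 and -4.31 on the WT arrays. The groups did not overlap, but the probe was well above background on 1 of 3 C3aR-/- arrays and on 3 of 3 WT arrays. The measured difference was -0.93 ± 0.22 (unadjusted p = 0.00504 by limma, n = 3 each), and it was -0.58, with no test, when the arrays not well above background were raised to the lowest level that was. With normexp correction it was -0.13 with an unadjusted p of 0.117 in limma. A second Eomes probe was not well above background on any array.

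Tbx21, the lineage factor of type 1 helper cells, had levels of -1.89, -3.91 and -3.65 on the C3aR-/- arrays, against -2.62, -2.87 and -2.35 on the WT arrays. C3aR-/- replicate 1 was the highest of the 6 arrays and the other two C3aR-/- arrays were the lowest, so the SD was 1.099 in C3aR-/- samples, against 0.26 in WT samples. The difference of -0.53 ± 0.52 did not exceed this spread (unadjusted p = 0.344 by limma, n = 3 each). Its size rests on single arrays. Without C3aR-/- replicate 1 it was -1.16 with an unadjusted p of 0.00135 by limma, without C3aR-/- replicate 2 it was -0.15 and without C3aR-/- replicate 3 it was -0.28. With arrays weighted by their fit it turned to 0.089, and with normexp correction it was -0.26. On C3aR-/- replicate 1, where Tbx21 was high, Ifng and Eomes stayed under every WT array.

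Upstream sequences of this cytokine and its T-box factors are shown because T-bet and eomesodermin are known to act on Ifng, and the groups stood apart for Ifng and Eomes but not for Tbx21. Each is the stretch of 250 bases before the start in RefSeq on GRCm38.p6, at chr10:118440796-118441045 on the plus strand for Ifng, chr11:97115332-97115581 on the minus strand for Tbx21 and chr9:118477939-118478188 on the plus strand for Eomes. Capitals mark a match to the STAT motif TTCNNNGAA, which STAT factors downstream of cytokine receptors recognise.
Ifng: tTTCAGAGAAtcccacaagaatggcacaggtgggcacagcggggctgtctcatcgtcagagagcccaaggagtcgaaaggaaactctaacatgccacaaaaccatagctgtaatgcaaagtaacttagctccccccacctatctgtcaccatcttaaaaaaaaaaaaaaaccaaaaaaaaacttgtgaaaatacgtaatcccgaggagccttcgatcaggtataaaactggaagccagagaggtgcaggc
Tbx21: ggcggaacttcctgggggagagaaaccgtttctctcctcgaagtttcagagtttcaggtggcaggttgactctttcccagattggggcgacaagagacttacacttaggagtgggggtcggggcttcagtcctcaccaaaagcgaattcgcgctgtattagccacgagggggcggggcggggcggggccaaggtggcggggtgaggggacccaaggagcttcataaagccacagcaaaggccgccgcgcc
Eomes: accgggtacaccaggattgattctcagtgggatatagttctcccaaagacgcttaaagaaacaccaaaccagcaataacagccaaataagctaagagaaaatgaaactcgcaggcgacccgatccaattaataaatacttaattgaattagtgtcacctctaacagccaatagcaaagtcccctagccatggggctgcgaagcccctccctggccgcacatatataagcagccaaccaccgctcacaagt
The letters searched on both strands were TCACACCT for T-box factors, AGATAA for GATA factors, CTTTGAA for TCF/LEF factors, GTAAACA for forkhead factors, TTCNNNGAA for STAT factors and TGTGGT for RUNX factors. Among 9 windows of 7 of the genes, TTCNNNGAA matched in Ifng at position -249, counted from the start, and in the second of the Foxp3 windows at position -139. AGATAA matched in that Foxp3 window and TGTGGT in the Izumo1r window, and the other letters matched in none of the 9. Over 32851 promoters of the same length the shares with a match were 1.12% for TCACACCT, 9.99% for AGATAA, 4.46% for CTTTGAA, 3.17% for GTAAACA, 7.02% for TTCNNNGAA and 14.0% for TGTGGT. A match is a run of letters and not a measured binding site. Windows of Ikzf2, Cd2 and Cd6 are not shown.

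Gata3 did not differ beyond the replicate spread. Its levels were 3.28, 3.38 and 3.37 on the C3aR-/- arrays, against 3.27, 3.27 and 3.43 on the WT arrays. The groups interleave within a fraction of a log2 unit, and processed signals lay between 5657 and 6747 on the C3aR-/- arrays and between 6463 and 6719 on the WT arrays. The difference was 0.021 ± 0.098 (unadjusted p = 0.838 by limma, n = 3 each), and its sign turned in 4 of 18 alternatives, the lowest value being -0.025. Distal nephron and collecting duct markers, a compartment in which the kidney itself uses GATA3, had array means between 1.83 and 1.905 in C3aR-/- samples and between 1.72 and 1.903 in WT samples. Of these 15 markers, 12 were higher and 3 lower, with a median difference of 0.11 and 1 at an unadjusted p under 0.05, the sodium channel subunit Scnn1a (0.27 ± 0.09). Mesangial and stromal markers were split, 4 lower and 4 higher, with none at that p. Which cells gave the Gata3 signal was not tested.

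Foxp3 was read close to background. Its levels were -5.82, -6.13 and -4.95 on the C3aR-/- arrays, against -4.49, -4.92 and -4.05 on the WT arrays. C3aR-/- replicate 3 and WT replicate 2 lay next to each other at the border of the groups, and the probe was well above background on 1 of 3 C3aR-/- arrays and on 2 of 3 WT arrays. In processed signal these values were 11.3, 7.7 and 21.1 on the C3aR-/- arrays, against 30.9, 22.1 and 36.9 on the WT arrays, where the dimmest spot called well above background had between 15.5 and 24.2 on an array. The measured difference was -1.15 ± 0.35 (unadjusted p = 0.0160 by limma, n = 3 each), a size that rests on signals under the background limit. With each array not well above background raised to the lowest level that was, it was -0.58, with no test. Without WT replicate 3 it was -0.93 and limma's unadjusted p was 0.0544, and with normexp correction it was -0.27.

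Ikzf2, the Ikaros-family factor Helios found in many thymus-derived regulatory T cells, did not follow Foxp3. Its levels were -1.90, -1.81 and -1.96 on the C3aR-/- arrays, against -1.73, -1.90 and -1.78 on the WT arrays. The groups overlapped, all 6 arrays were well above background, and the difference was -0.086 ± 0.100 (unadjusted p = 0.422 by limma, n = 3 each). Foxp3 over Ikzf2 on the same array differed by -1.06 between the groups, with C3aR-/- replicate 3 just inside the WT range. Which cells gave the Ikzf2 signal was not tested, so its level does not describe regulatory T cells alone.

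Izumo1r, the folate receptor 4 gene of regulatory and anergic T cells, had the largest measured difference of the 10 genes on its probe 1, though Cd2 and Cd6 exceeded it with normexp correction. Its levels were -3.77, -4.71 and -3.97 on the C3aR-/- arrays, against -2.51, -3.09 and -1.74 on the WT arrays. No C3aR-/- array reached the WT range, all 6 arrays were well above background, and the difference was -1.70 ± 0.39 (3.26-fold lower, unadjusted p = 0.00420 by limma, n = 3 each). With normexp correction it was -0.88. Probe 2, which lies 651 bases from probe 1 on the genome, had levels of -4.75, -5.99 and -4.10 on the C3aR-/- arrays, against -4.56, -4.34 and -4.18 on the WT arrays. There the groups overlapped and 2 of 3 C3aR-/- arrays were well above background, with a difference of -0.59 ± 0.45 and an unadjusted p of 0.236 by limma, so the size of the Izumo1r difference depends on which probe is read.

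Tcf7, whose product TCF-1 maintains naive and memory T cells, had levels of -3.59, -4.49 and -3.73 on the C3aR-/- arrays, against -2.56, -3.28 and -2.51 on the WT arrays. The groups did not overlap, and the difference was -1.15 ± 0.31 (2.22-fold lower, unadjusted p = 0.00860 by limma, n = 3 each). It was -0.75 with array weights, -0.76 without both WT replicate 1 and C3aR-/- replicate 2, and -0.59 with normexp correction. A second probe differed by -0.86 ± 0.36 with an unadjusted p of 0.0499 by limma and overlapping groups, and another Tcf7 probe was not well above background on any array.

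Cd2, the adhesion receptor that binds CD48 in mice, had levels of -1.61, -2.56 and -1.70 on the C3aR-/- arrays, against -0.66, -0.80 and -0.036 on the WT arrays. Every C3aR-/- array was lower, and the difference was -1.46 ± 0.32 (2.75-fold lower, unadjusted p = 0.00307 by limma, n = 3 each). Its second probe shares 51 of 60 bases with the first and differed by -1.33 ± 0.27, so it is not a separate reading of the transcript. Cd6, a co-receptor that binds CD166, had levels of -1.56, -2.02 and -1.53 on the C3aR-/- arrays, against -0.43, -0.81 and -0.21 on the WT arrays. The groups stood apart, the difference of -1.22 ± 0.21 (2.33-fold lower) had the smallest p of the 10 genes (unadjusted p = 0.000812 by limma, n = 3 each), and over 18 alternatives it stayed between -1.38 and -1.01.

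**Figure D2:**
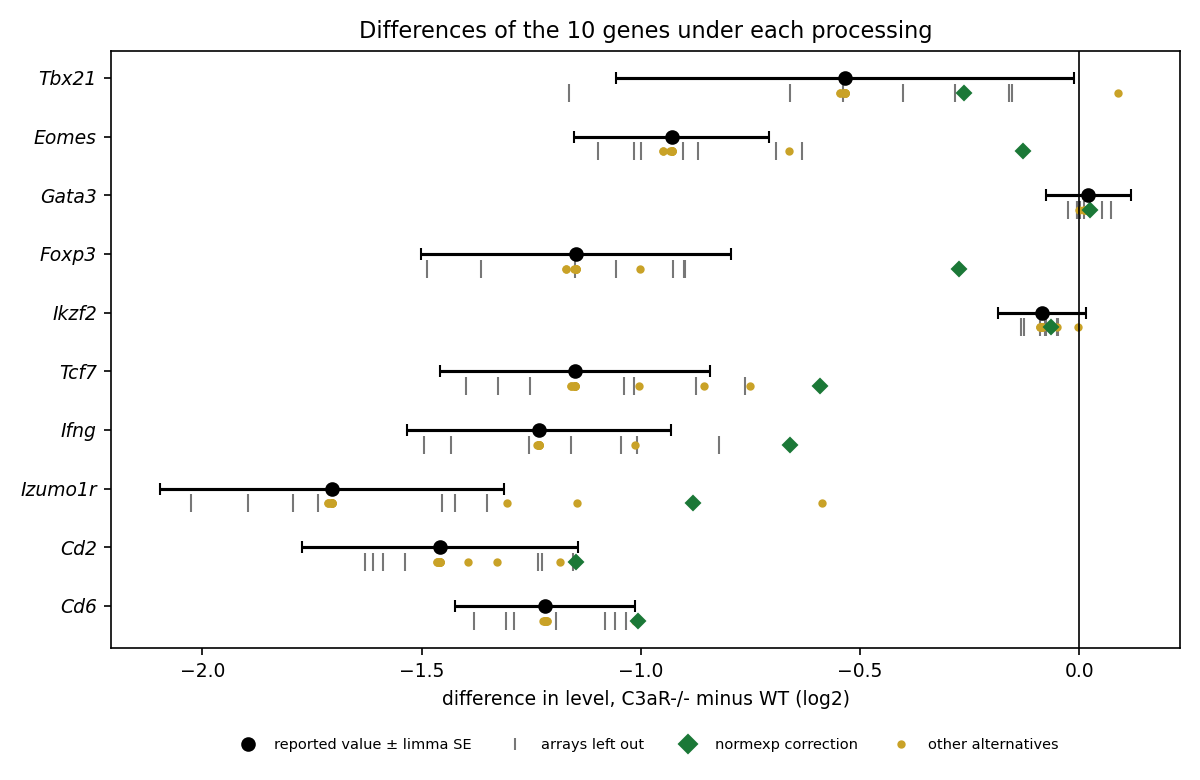
Differences in level, C3aR-/- minus WT on the log2 scale, for the 10 genes. Black points with bars are the reported values ± limma SE, and the marks under them are the same difference with arrays left out, with normexp correction and under the other alternatives, single probes included. Cd2 and Cd6 stay below -1 under every mark, Eomes and Foxp3 move to -0.13 and -0.27 with normexp correction, and Tbx21 spans -1.16 to 0.089.

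The probes of the 5 genes read by more than 1 probe were followed singly. The 3 Ikzf2 probes, the farthest of which lie 150481 bases apart on the genome, differed by -0.086, -0.064 and -0.0039, and their groups overlapped. Both Tcf7 probes kept were lower, as were both Izumo1r probes, though in each gene the second probe gave a smaller difference than the first. The dim probe 2 of Eomes and probe 3 of Tcf7 scattered over more than 1 log2 unit within a group.

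**Figure D3:**
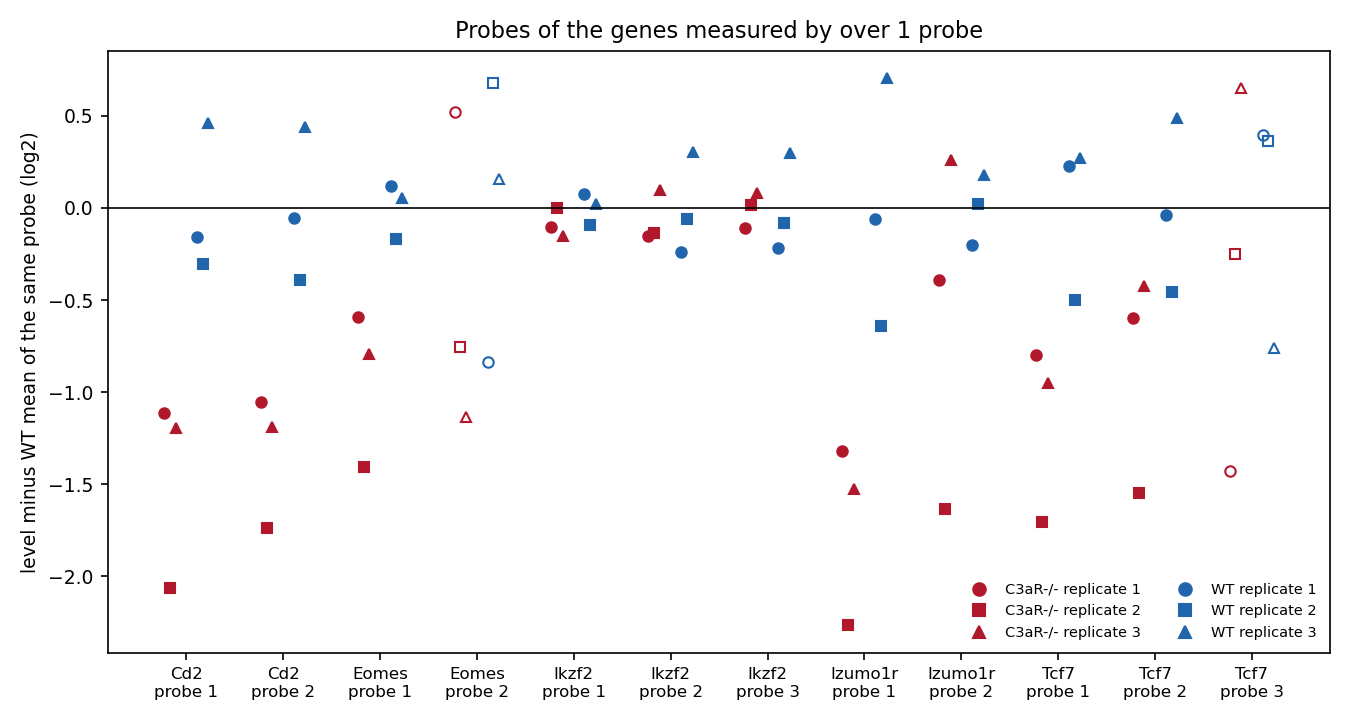
Levels of each probe of Cd2, Eomes, Ikzf2, Izumo1r and Tcf7 on each array, minus the WT mean of the same probe (log2), with C3aR-/- arrays left of WT arrays. Open symbols are probes left out of the test because they were well above background on 0 arrays. Probe 2 of Izumo1r shows overlapping groups where probe 1 does not.

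The arrays sat in 2 rows of 1 slide, and each row held both groups. In row 1, which held 2 C3aR-/- and 2 WT arrays, the median difference of the 10 genes was -1.21, and in row 2, which held 1 array of each group, it was -1.03. Gata3 was the only gene of the 10 whose sign differed between the rows, with -0.016 and 0.094. Foxp3 was the most uneven of the lower genes, at -1.49 in row 1 and -0.46 in row 2, while Tbx21 ran the other way at -0.29 and -1.02.

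General T cell markers were lower alongside these genes, and their part in the differences was not tested. Of 15 tested markers, 14 were lower and 12 had an unadjusted p under 0.05 by limma, with a median difference of -0.97. Their mean level lay between -2.09 and -1.41 on the C3aR-/- arrays and between -1.16 and -0.61 on the WT arrays. Cd3d, part of the CD3 signalling module, differed by -1.23 ± 0.27, Cd28, the co-stimulatory receptor, by -0.64 ± 0.14, and Cd3e by -0.51 ± 0.18. Cd3e, Cd8a (-0.46 ± 0.27) and Cd4 (0.060 ± 0.126) had overlapping groups, Cd3e only just, with C3aR-/- replicate 1 at -0.652 and WT replicate 2 at -0.657. The markers Cd27, Trat1, Ubash3a and Themis were too dim to be tested. Natural killer and innate lymphoid markers, which share Eomes, Tbx21 and Ifng, were lower in 10 of 10 with 4 at an unadjusted p under 0.05 and a median of -0.69, Klrd1 differing by -1.08 ± 0.20. Their array means lay between -3.06 and -2.75 in C3aR-/- samples and between -2.44 and -2.08 in WT samples, and Ncr1, Klre1, Itga2 and Arg1 were too dim to be tested. Pan-leukocyte markers were lower in 7 of 8, with array means between -0.067 and 0.47 in C3aR-/- samples and between 0.59 and 1.01 in WT samples; Ptprc, which encodes CD45, was the exception at 0.088 ± 0.140. Macrophage and dendritic cell markers were lower in 10 of 12 (median -0.57), with Lyz2 at -0.92 ± 0.21 and Itgax at -0.80 ± 0.18, while Mertk, named after its value was seen, was higher with no overlap at 0.35 ± 0.11. B cell markers were lower in 5 of 6 (median -0.32), with Cd79b at -0.66 ± 0.15. Proximal tubule markers ran the other way, higher in 10 of 10 with a median of 0.48 and none at an unadjusted p under 0.05 by limma. Without WT replicate 1, whose mean was the lowest, that median was 0.12, without C3aR-/- replicate 2 it was 0.28, and without both it was -0.059.

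Relative to the mean T cell marker of the same array, the 10 genes were lower without overlap, overlapping, or higher without overlap. Izumo1r (-0.84), Cd2 (-0.59) and Cd6 (-0.35) were lower than the markers with no overlap between groups against the marker mean. Of the 15 single markers, 0 had a lower difference than Izumo1r or Cd2, and 3 had a lower one than Cd6. For Cd2 this rests on a near tie, with Cd2 at -1.46 ± 0.32 and the marker Cd3g at -1.44 ± 0.37. The second Cd2 probe, at -1.33, did not lie below Cd3g. On probe 2 of Izumo1r the ratio turned to 0.28. Foxp3 (-0.28), Ifng (-0.37), Tcf7 (-0.29), Eomes (-0.065) and Tbx21 (0.33) overlapped between groups on this ratio. Gata3 (0.88) and Ikzf2 (0.78) were higher relative to the markers with no overlap. The marker mean itself was lower in C3aR-/- samples with no overlap, so a flat gene comes out higher by construction. This ratio shows unequal change within the arrays and not that either gene was constant. Over 18 alternatives that keep or average these probes, the 3 negative ratios of Izumo1r, Cd2 and Cd6 and the 2 positive ones kept their sign, but that of Izumo1r shrank to -0.22 with normexp correction and to -0.27 when its probes were averaged. Set against the pan-leukocyte markers instead, 8 of the 10 genes had no overlap. Ifng (-0.65), Eomes (-0.34), Tcf7 (-0.57), Izumo1r (-1.12), Cd2 (-0.87) and Cd6 (-0.63) were lower, and Gata3 (0.61) and Ikzf2 (0.50) higher. Foxp3 (-0.56) and Tbx21 (0.051) still overlapped. The pan-leukocyte mean was itself lower in C3aR-/- samples with no overlap, so a flat gene can also come out apart. The share of all genes without overlap on either ratio was not counted, so these counts are not read as results about the 10 genes. No test was run on these ratios.

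**Figure D4:**
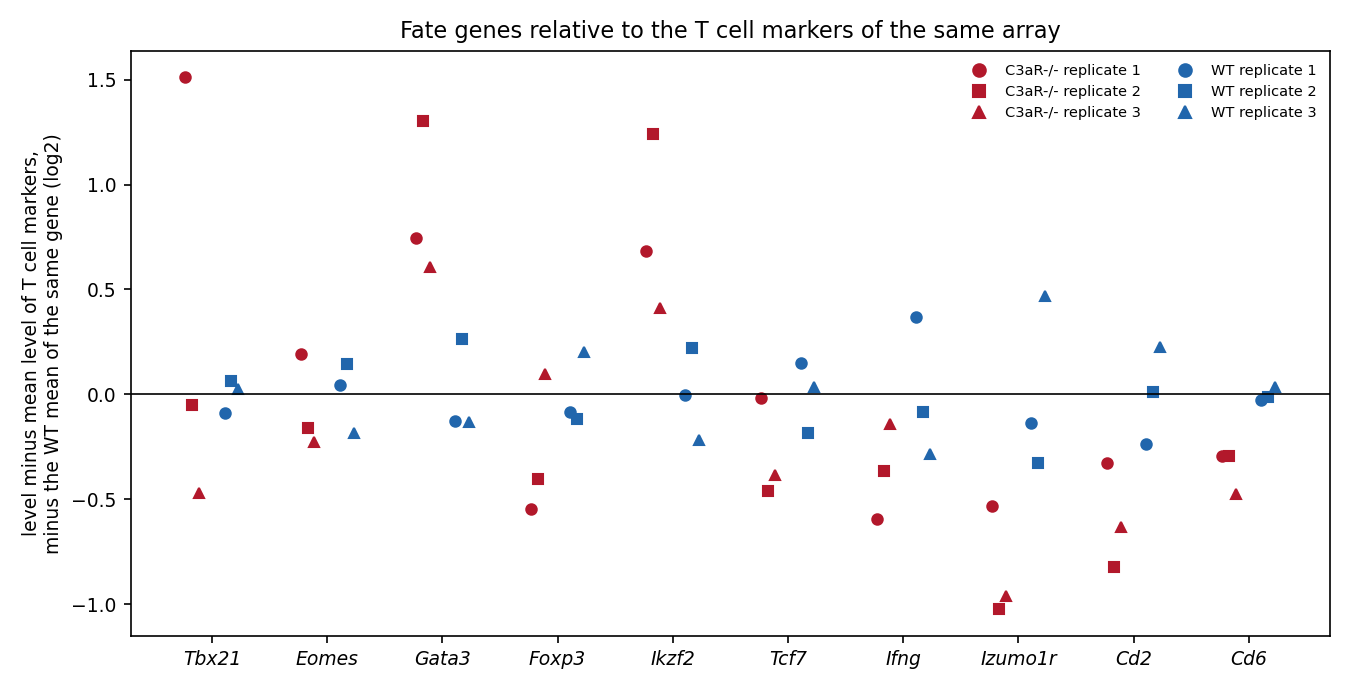
Level of each gene minus the mean level of 15 T cell markers on the same array, shown minus the WT mean of the same gene (log2), with C3aR-/- arrays left of WT arrays. Izumo1r, Cd2 and Cd6 lie below all WT arrays and Gata3 and Ikzf2 above them. The marker mean was itself lower in C3aR-/- samples, which lifts flat genes. Tbx21 is spread by C3aR-/- replicate 1.

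Ratios between lineage genes were formed within each array; their absolute values depend on the probes, and only the contrast between groups is read from them. Foxp3 over Tbx21 averaged -2.49 ± 1.33 in C3aR-/- samples, against -1.87 ± 0.18 in WT samples (log2, SD, n = 3 each), and the C3aR-/- values lay on both sides of the WT values. Foxp3 over Ifng differed by 0.084 between the groups, with the WT values on both sides of the C3aR-/- ones. Ifng over Tbx21 was -2.12, -0.33 and 0.31 on the C3aR-/- arrays, against 0.44, -0.17 and -0.33 on the WT arrays, low on C3aR-/- replicate 1 and overlapping otherwise. The Foxp3 values in these ratios share the limit given for its probe.

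The wider program of each fate was read from lists of further genes that exclude the 10. Il18r1 and Il1rl1 also stand among the natural killer and innate lymphoid markers. Over all genes tested, 4.89% had an unadjusted p under 0.05 by limma, 2.68% lower and 2.21% higher. Which cells gave the signals of these lists was not tested. In the type 1 program, 12 of 13 tested genes were lower and 8 of them had an unadjusted p under 0.05 by limma, with none higher at that p and a median of -0.67. Il18r1, a receptor chain that lets type 1 cells answer interleukin-18, had levels of -3.70, -4.39 and -3.59 on the C3aR-/- arrays, against -2.74, -3.09 and -2.63 on the WT arrays, a difference of -1.08 ± 0.24. Lta, which encodes lymphotoxin alpha, was well above background on 0 of 3 C3aR-/- arrays, and its WT mean was at least 1.62-fold above the C3aR-/- arrays (measured difference -1.04), where a bound takes the lowest signal well above background in place of a dimmer one. Il12a, Il12b and Il18rap were too dim to be tested.

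The interferon-gamma response was lower in 17 of 18 genes, with a median of -0.59, but 2 of them had an unadjusted p under 0.05 by limma. Cxcl9, a chemokine induced by interferon-gamma that draws CXCR3-bearing T cells, had levels of 0.50, -0.039 and 0.96 on the C3aR-/- arrays, against 2.53, 1.40 and 1.66 on the WT arrays, a difference of -1.39 ± 0.36. Ido1, the tryptophan-degrading enzyme, differed by -0.68 ± 0.23. The array means of the list overlapped, at 2.07, 1.97 and 2.75 in C3aR-/- samples against 3.40, 2.62 and 2.57 in WT samples. The median was -0.32 without WT replicate 1 and -0.16 without both WT replicate 1 and C3aR-/- replicate 2. The count rests on how arrays are combined: 17 genes passed that p with the slide row as a block, 10 without C3aR-/- replicate 3, and 1 without WT replicate 1, without WT replicate 2 or without C3aR-/- replicate 2. The share of all genes passing that p was 4.89% in the reported fit and is not given here for any alternative. Counts under alternatives, in this and the other lists, therefore cannot be set against all genes.

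The regulatory program was lower in 12 of 16 genes and 7 had an unadjusted p under 0.05 by limma, none of them higher, with a median of -0.35. Tnfrsf18, which encodes the co-stimulatory receptor GITR, had levels of -2.62, -3.27 and -2.66 on the C3aR-/- arrays, against -1.33, -1.90 and -1.28 on the WT arrays, a difference of -1.35 ± 0.25. Areg, a growth factor that tissue regulatory T cells and other cells release, differed by -0.85 ± 0.17. Without both WT replicate 1 and C3aR-/- replicate 2, 3 of the 16 genes passed that p. Ctla4, Il10, Gpr83 and Tigit were too dim to be tested. The cells behind the signals of this list were not tested either, so its counts do not describe regulatory T cells alone.

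Follicular helper genes were lower in 7 of 10, 4 of them at an unadjusted p under 0.05 by limma, and 1 was higher at that p, with a median of -0.57. Pdcd1, the inhibitory receptor PD-1, differed by -1.34 ± 0.24, and Sh2d1a, the adaptor SAP, was well above background on 0 of 3 C3aR-/- arrays and at least 2.32-fold higher in WT samples (measured difference -1.75). Restricted to genes well above background on all 6 arrays, the list's median was -0.074. The gene higher at that p was the cytokine Il21 (0.30), named after its value was seen, whose probe was well above background on 3 of 3 C3aR-/- arrays and on 1 of 3 WT arrays.

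Type 2 and type 17 programs had few tested genes at a low p. Of 7 type 2 genes 6 were lower and 1 had an unadjusted p under 0.05 by limma, Il2rb, a chain of the interleukin-2 and interleukin-15 receptors that other lymphocytes carry too (-0.92 ± 0.19), while Maf differed by 0.36 ± 0.20 with an unadjusted p of 0.115 by limma. Without WT replicate 2, 4 type 2 genes passed that p. The type 2 cytokines Il4, Il5, Il13, Il9 and Il31 and the receptors Ccr4 and Ptgdr2 were too dim to be tested. Of 9 type 17 genes 8 were lower with a median of -0.066, and 2 passed that p, the chemokine receptor Ccr6 (-1.10 ± 0.18) and the interleukin-6 receptor Il6ra (-0.42 ± 0.17); 1 passed without WT replicate 1, without WT replicate 3 or without C3aR-/- replicate 2. Il17a, Il17f, Il22, Il23r and Il23a were too dim to be tested.

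The naive and memory program, which surrounds Tcf7, was lower in 9 of 15 genes with a median of -0.030, close to that of all genes, and 4 of them had an unadjusted p under 0.05 by limma. Il7r, the interleukin-7 receptor that sustains naive and memory T cells, had levels of -2.31, -3.25 and -2.52 on the C3aR-/- arrays, against -1.95, -1.36 and -0.86 on the WT arrays, a difference of -1.30 ± 0.35. Tox, a nuclear factor of T cell development, differed by -0.45 ± 0.10. Ccr7 (-1.13 ± 0.33) and Lef1 (-0.71 ± 0.19), named after their values were seen, also passed that p, and no gene of the list was higher at it. Which cells gave the signals of this list was not tested, so its median does not describe T cells alone. No gene of these lists passed the adjusted threshold.

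**Figure D5:**
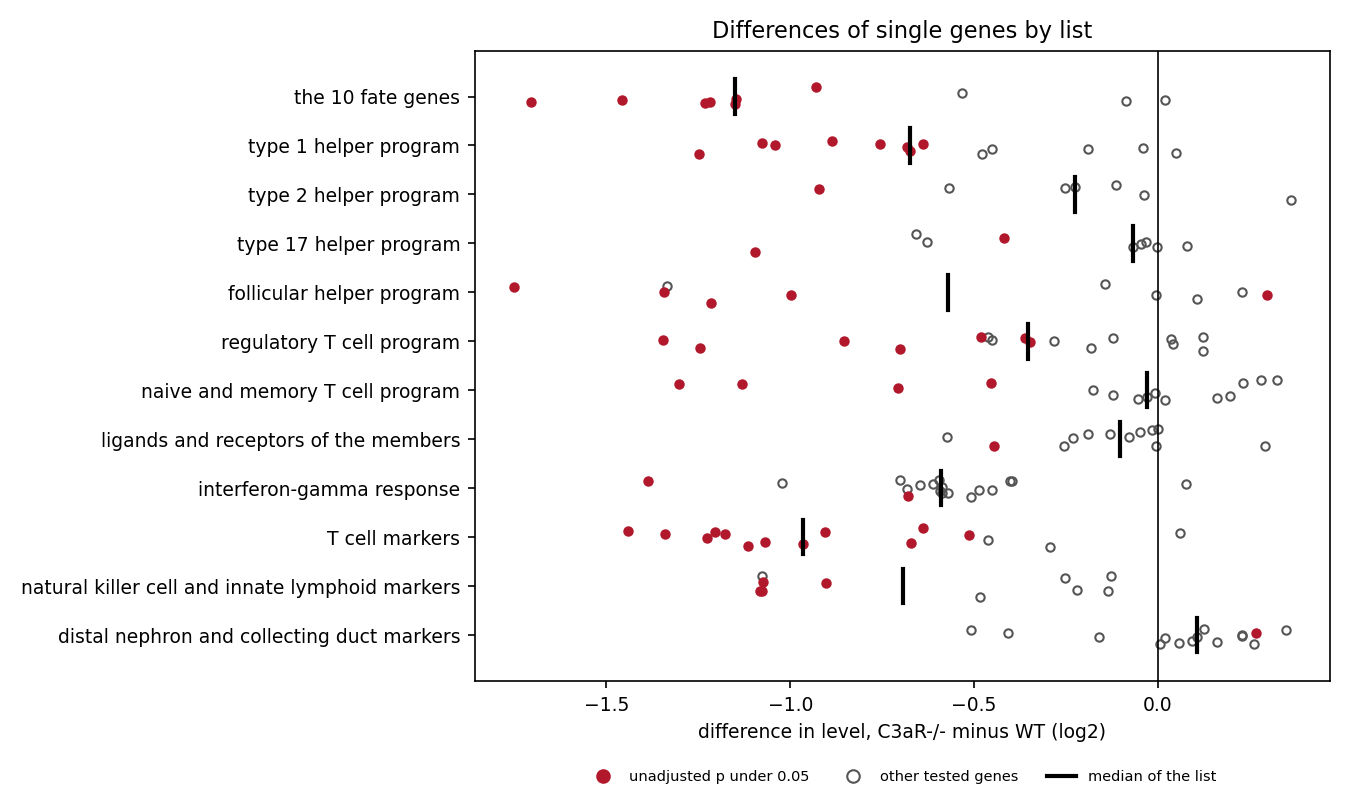
Differences of single genes by list, C3aR-/- minus WT on the log2 scale, each point 1 tested gene and each black bar the median of its list. Filled points had an unadjusted p under 0.05 by limma. Most genes lie left of 0 in every list shown except the distal nephron markers, where most lie right of it. Medians near 0 are those of the naive and memory program (-0.030), the type 17 program (-0.066), the ligands and receptors (-0.10) and the distal nephron markers (0.11).

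Ligands, receptors and partners of the 10 proteins had a smaller median difference than the 10 genes, and which cells gave their signals was not tested. Of 12 tested, 10 were lower, with a median of -0.10. An unadjusted p under 0.05 by limma, which 4.89% of all genes had, was found for 1 of them. This was Ikzf1, the Ikaros partner of Helios, at -0.45 ± 0.16. The count at that p was 0 without WT replicate 3 or without C3aR-/- replicate 2. Cd48, the ligand of CD2 on leukocytes, had levels of -0.42, -1.17 and -0.45 on the C3aR-/- arrays, against 0.12, -0.47 and 0.04 on the WT arrays, a difference of -0.57 ± 0.26 with an unadjusted p of 0.0645 by limma. Cd244, another receptor of CD48, differed by 0.29 ± 0.28. The CD6 ligands Alcam, which encodes CD166, and Cdcp1 differed by -0.0034 ± 0.14 and -0.13 ± 0.12. The interferon-gamma receptor chains Ifngr1 and Ifngr2 differed by -0.19 ± 0.17 and -0.23 ± 0.18, and their kinases Jak1 and Jak2 by -0.015 ± 0.11 and -0.25 ± 0.15. The GATA partner Zfpm1 differed by -0.047 ± 0.11, the TCF-1 partner beta-catenin (Ctnnb1) by -0.078 ± 0.11 and Ikzf3 by 0.0019 ± 0.15. Apart from Ikzf1 and Cd48, the differences of the 10 other genes lay within 2 SE of 0, and a p above the threshold does not show that the levels were alike.

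Profiles over the 6 arrays set each gene beside others, by the root mean square distance between log2 profiles centred on their own means, which is a description over 6 arrays that share the group difference. Nearest to Tcf7 were Cd3d (0.099), Ltb (0.11) and P2ry10 (0.12), and nearest to Cd6 were Klrd1 (0.093), Gpr171 (0.095) and Cd3d (0.098). Eomes lay nearest to Il2rb (0.089), Btla (0.11) and Traf3ip3 (0.12), and Ifng to Xcl1 (0.13), Ms4a4b (0.14) and Calhm6 (0.14). Foxp3 lay nearest to Zap70 (0.17), Crtam (0.17) and Pira7 (0.17), and Izumo1r to Cd2 (0.22), Sh2d1a (0.25) and Cd3g (0.27). The Tbx21 profile had no neighbour nearer than Sla2 at 0.25. Gata3 and Ikzf2, flat over the arrays, lay within 0.026 of Tspan31, Tcf25 and Psmg4 and of Taf4b, Mfsd5 and Kif24.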

How the data were processed

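RNA of 6 renal cortex samples was read on 1-colour Agilent arrays on 1 slide, and samples were grouped by the titles of the samples. As given per the file headers, the scanner software (Agilent Feature Extraction, version 10.7.1.1) background-subtracted and spatially detrended the deposited processed signal, an intensity that was not normalized between arrays. The authors' deposited table holds log2 values whose sorted columns match to within 0.000865, and it served as an alternative. Here the level was log2 of the processed signal minus the array's 75th percentile. Control spots and flagged outliers were left out, spots of a probe were averaged, and probes well above background on at least 3 of 6 arrays were kept. The probe with the highest mean stood for its gene, named through RefSeq identifiers for 32992 probes and through the array file for 23607. Differences were tested with limma 3.58.1 in R 4.3.3 with Benjamini-Hochberg adjustment over 22741 genes. The fit was also run on simulated arrays with independent noise for each gene. That run does not describe its behaviour on these arrays. The number of arrays limits precision. The 10 genes and all lists were chosen with earlier results of these data known. Named genes are the 10, the 2 of smallest p in each list, all ligands and receptors, Cd4, Cd8a, Cd3e, Ptprc and C3ar1, and the 3 nearest profiles of each gene. Alternatives covered scaling, background correction, filters, probe choice, variance model, array weights, blocks and left-out arrays. Some genes that this rule would name are not reported here.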

Additional observations from a re-analysis of the deposited data

How the results depend on the processing

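Over 18 alternatives the number of genes past the adjusted threshold was 0, and between 5 and 8 of the 10 genes had an unadjusted p under 0.05 by limma; the 5 came from keeping only probes well above background on all 6 arrays, which removes Foxp3 and Eomes. The median difference of the 10 genes, -1.15, became -0.43 with normexp correction, whose offset shrinks dim signals by construction, and -0.79 without both WT replicate 1 and C3aR-/- replicate 2. Leaving out 1 array at a time gave medians between -1.37 and -0.89 and between 6 and 8 genes at an unadjusted p under 0.05. Replicate numbers were not shown to pair samples (correlations of same-numbered deviations of 0.13, 0.41 and -0.093), and with the replicate number as a block the median was -1.15 and 7 genes passed that p. The sign turned for Tbx21 with array weights (0.089) and for Gata3 with array weights (-0.0011), without both end arrays (-0.025), and on leaving out WT replicate 1 (-0.0053) or WT replicate 2 (-0.0058); the cause was not tested. With 1 array left out Gata3 ranged from -0.0058 to 0.073. The other 8 genes kept their sign in every alternative run. The median of the type 2 list was -0.22 and turned to 0.0039 without both end arrays, that of the proximal tubule markers (0.48) turned to -0.059 under the same setting, and that of the naive and memory list was -0.030 and reached 0.0079 at most. Relative to T cell markers, Foxp3, Tcf7, Eomes and Tbx21 changed sign in at least 1 alternative. Signals near background limit Foxp3, Eomes and probe 2 of Izumo1r. Raising dim arrays to the background limit and recomputing the list values and marker ratios were chosen after seeing the data; by that limit Foxp3 and Eomes both measured -0.58.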
